A study of Mus musculus with 2 samples.

Results

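The strongest distal peaks were 1054 regions of 150 bp that were far from annotated gene starts and had high DNase-seq peak scores in both replicates of newborn mouse thymus. The regions were chosen by score and position. Each was an autosomal peak of replicate 1 with an authors' peak score of at least 110 that overlapped a replicate 2 peak with a score of at least 110 and had its midpoint over 5000 bp from every GENCODE start site of any gene biotype. They made up 2.26% of the 46600 distal autosomal peaks that both replicates shared. The scores and the distance chose the regions, so both are given as descriptions and neither is a finding. The meaning of the score is not given; it ran from 1 to 150, the width of a peak in bp, and was used as a rank.

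The study mapped accessible chromatin by DNase-seq in whole thymus of strain B6NCrl at postnatal day 0, with males and females pooled. It held 1 group of 2 biological replicates, which the labels assign to the same donor and to separate biosamples, and no treated or mutant group. The authors called peaks in each library by itself, 154812 in replicate 1 and 139702 in replicate 2, and also hotspots, the wider tracts of raised cutting around the peaks. In whole tissue, fewer cells of a type and less accessibility per cell cannot be told apart.

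DNase I cuts DNA most readily where nucleosomes have been displaced, and such hypersensitive sites mark promoters, enhancers, silencers and insulators. Sites far from gene starts are mostly enhancers and CTCF-bound insulators, and in thymocytes, the developing T cells that fill the thymus, enhancers are bound by RUNX, ETS, E protein, TCF7 and GATA3 factors. A distal element can act on a gene other than the nearest, so gene names below locate a peak and do not assign it a target.

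The regions ranked 1, 2 and 5 by their lower score are shown first, since their letters show how differently the strongest peaks are built. The sequences are the mm10 plus strand, 5′ to 3′, and capitals mark letters that match 1 of the consensus motifs searched on both strands.
Ptma, chr1:86487496-86487645: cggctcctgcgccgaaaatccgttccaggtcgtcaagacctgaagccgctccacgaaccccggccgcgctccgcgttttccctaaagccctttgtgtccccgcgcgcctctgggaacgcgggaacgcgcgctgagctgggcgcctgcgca
Ccdc167, chr17:29769236-29769385: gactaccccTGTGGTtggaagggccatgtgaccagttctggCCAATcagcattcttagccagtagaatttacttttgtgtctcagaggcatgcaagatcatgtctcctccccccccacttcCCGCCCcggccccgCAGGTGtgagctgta
Pde4d, chr13:109822516-109822665: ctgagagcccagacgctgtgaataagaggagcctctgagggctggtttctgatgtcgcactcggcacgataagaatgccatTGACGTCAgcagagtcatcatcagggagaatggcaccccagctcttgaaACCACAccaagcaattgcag
The region listed under Ptma is rich in CpG and held no match to any of these motifs. The one under Ccdc167 held RUNX, NFY and GC box letters and an E-box, and the one under Pde4d held a CRE (TGACGTCA) and a RUNX match.

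Regions nearest to genes of T cell development and signalling are shown next, picked because their letters recur among the results on sequence below. Not all such regions hold these letters. The strongest at Tcf7, with scores of 129 and 136, and at Ptprc, with 125 and 130, held no match. The Tgfbr2 region shown lies 191.1 kb from the start and is not the strongest there, which held an E-box alone.
Ets1, chr9:32747796-32747945: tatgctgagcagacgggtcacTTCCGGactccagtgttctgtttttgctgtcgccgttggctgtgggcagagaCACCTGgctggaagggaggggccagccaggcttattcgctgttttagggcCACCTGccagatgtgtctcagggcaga
Il2ra, chr2:11653456-11653605: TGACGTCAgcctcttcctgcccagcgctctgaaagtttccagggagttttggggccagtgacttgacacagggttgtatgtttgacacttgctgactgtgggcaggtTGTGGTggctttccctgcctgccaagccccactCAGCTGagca
Ccr9, chr9:123756876-123757025: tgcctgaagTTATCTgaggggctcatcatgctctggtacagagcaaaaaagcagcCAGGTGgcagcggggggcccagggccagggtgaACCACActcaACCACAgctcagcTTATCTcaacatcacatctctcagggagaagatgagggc
Cd247, chr1:165802056-165802205: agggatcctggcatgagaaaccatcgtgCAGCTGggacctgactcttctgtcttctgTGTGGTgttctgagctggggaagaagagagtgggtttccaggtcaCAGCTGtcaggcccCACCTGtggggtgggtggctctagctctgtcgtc
Tgfbr2, chr9:116366336-116366485: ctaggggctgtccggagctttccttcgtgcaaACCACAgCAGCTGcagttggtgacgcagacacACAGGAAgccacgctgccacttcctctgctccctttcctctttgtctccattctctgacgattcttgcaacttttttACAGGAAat
The Ets1 region held an ETS match of the CpG form (CCGGAA) and E-boxes of the form CACCTG. The Il2ra region began with a CRE and held RUNX and E-box matches, and the Ccr9 region held a pair of RUNX matches, an E-box and a pair of GATA matches. The Cd247 region held 2 E-boxes of the form CAGCTG around a RUNX match, and the Tgfbr2 region held RUNX letters 1 base from an E-box.

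At Ccnd3, which had 4 of the regions in its introns, the strongest held both E-box forms and the ETS form without CpG.
Ccnd3, chr17:47542196-47542345: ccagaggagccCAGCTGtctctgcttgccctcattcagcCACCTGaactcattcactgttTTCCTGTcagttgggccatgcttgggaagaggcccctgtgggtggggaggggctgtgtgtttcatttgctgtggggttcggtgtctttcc

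The only one of the 20 highest-ranked regions with a CTCF core match, upstream of Stard10, completes the sequences.
Stard10, chr7:101310776-101310925: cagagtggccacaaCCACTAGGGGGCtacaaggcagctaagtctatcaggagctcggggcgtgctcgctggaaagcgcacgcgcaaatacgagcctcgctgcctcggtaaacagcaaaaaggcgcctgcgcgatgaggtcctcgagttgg
The Stard10 region held the letters CCNNNAGNNGGC of the CTCF core near its left end.

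The rule asked for a high score in both replicates, on a scale that ends at 150, so the closeness of the scores was largely set by the choice. In replicate 1 they had a lowest score of 110, a median of 119 and a highest of 140. In replicate 2 the lowest was 110, the median 120 and the highest 146. The replicate 2 score was the higher at 582 regions and the replicate 1 score at 405, with 67 equal. The scores lay within 10 of each other at 959 regions, 91.0% of them. A score of at least 110 was held by 6.98% of all peaks in replicate 1 and by 8.41% in replicate 2.

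**Figure D1:**
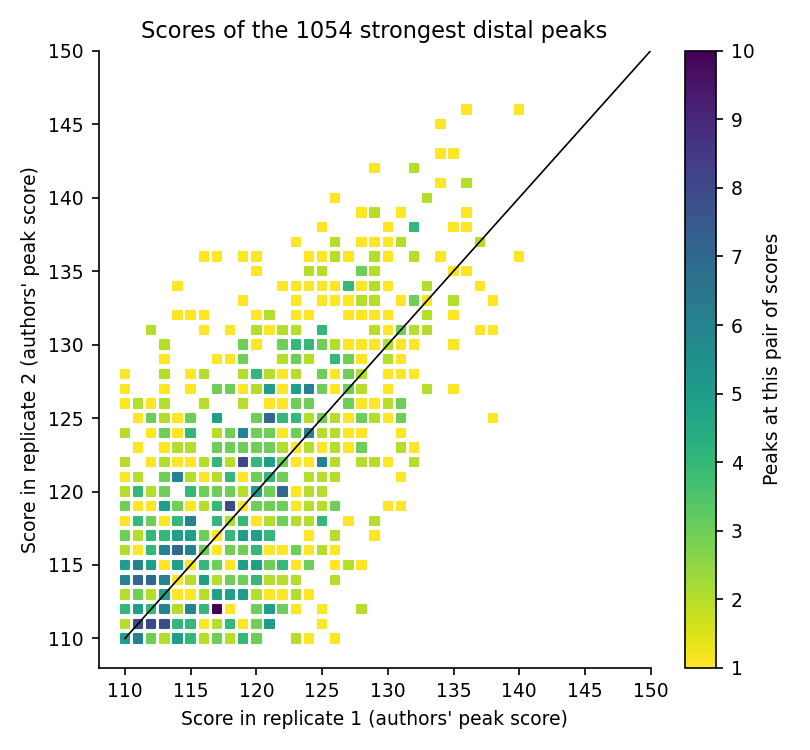
Authors' peak score in replicate 1 (horizontal) and replicate 2 (vertical) for the 1054 strongest distal peaks, with darker squares where more peaks have the same pair of scores and a line of equal scores. The cloud follows the line, and 959 peaks lie within 10 of it.

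The limits cut through a continuous range. At the score limit, 81 regions had a lower score of exactly 110 and 74 distal shared peaks stood just outside with 109. At the distance limit, 88 regions lay within the first 1 kb beyond it, while 112 equally strong shared peaks lay within the last 1 kb before it and were left out. The nearest region kept was at 5030 bp and the farthest left out at 4993 bp. Of the 1570 distal peaks of replicate 1 that scored at least 110, 10 had no replicate 2 peak and 506 had one that scored under 110, with a median of 102.5 and a lowest value of 65.

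The rule asked for an overlap of any length, and the positions were closer than that. The replicate 2 peak had identical ends at 423 regions, 40.1%, and lay within 20 bp at 919, 87.2%. Among the other distal shared peaks, 34.2% had identical ends and 74.6% lay within 20 bp. In the band just below the limit, with lower scores of 90 to 109, 87.3% lay within 20 bp, a share close to that of the strongest peaks. The sequences were nearly all unique in the genome: 1012 regions, 96%, had no 31-base word found at a second position, and the most repetitive region had 37.5% of its words elsewhere.

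The labelled tissue was checked with gene lists. Shared peaks within 1000 bp of a coding start site were present at 24 of 24 T lineage transcription factor genes, 24 of 24 T cell receptor and signalling genes, and 16 of 16 early thymocyte and recombination genes. They were present at 3 of 12 hepatocyte genes and 9 of 11 autosomal neuron genes. Among genes of other cells of the thymus, they were present at 9 of 15 epithelial, 5 of 12 endothelial, 4 of 12 mesenchymal, 5 of 11 erythroid, 10 of 15 myeloid and 6 of 12 B cell genes. The part of these other cells in the results below was not tested. The share of all autosomal coding genes with a shared peak this close is not given here. The counts therefore do not show how the T cell lists compare with coding genes at large.

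The region with the highest lower score was intergenic, 39.2 kb upstream of Ptma, which encodes prothymosin alpha, an acidic nuclear protein abundant in dividing lymphocytes. It scored 140 in replicate 1 and 146 in replicate 2, and its hotspot spanned 2341 and 1854 bp. The region nearest to Ccdc167, a coiled-coil protein gene, came second with 137 in both replicates, 52.3 kb upstream of its coding start. The third also scored 137 in both, and lay in an intron of Abtb2, 75.9 kb from the start of Nat10, an RNA acetyltransferase gene. The order within this group is fine-grained, since the 20 highest-ranked regions had lower scores of 133 to 140.

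Of the 20 highest-ranked regions, those nearest to Nr4a1, Fos, Ifngr1 and Btg2 are described next. No fixed list of genes of this kind was used, so no share over all distal peaks stands beside them. The region 7.84 kb upstream of Nr4a1, a nuclear receptor induced by T cell receptor signalling, scored 136 and 139. The region 18.5 kb upstream of Fos, a subunit of the AP-1 transcription factor, scored 135 and 143. Both were CpG-rich. The region 7.68 kb upstream of Ifngr1, the interferon gamma receptor chain that binds the ligand, scored 137 and 134 and was not CpG-rich. Near Btg2, an antiproliferative gene, the strongest of 4 regions scored 133 and 140.

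The region in an intron of Chd7, which encodes a chromatin remodelling enzyme, scored 140 and 136. The region in an intron of Pde4d, which encodes a cAMP phosphodiesterase, scored 136 and 141, and carries the CRE and RUNX letters printed above. The region 6.10 kb upstream of Sox4, an HMG-box transcription factor expressed in developing lymphocytes, scored 136 and 138. The region in an intron of Insr, the insulin receptor gene, scored 133 and 140. The regions nearest to Trappc9, Rasa2, Chrna9, Cirbp, Zfp395 and Klrb1c scored 134 to 136 in replicate 1 and 135 to 145 in replicate 2. None of the 20 lay nearest to a gene of the 3 T cell lists (T lineage transcription factors, T cell receptor genes, early thymocyte genes). Over all 1054 regions the share at these lists was 3.51%, so their absence among 20 regions says little.

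Start sites that GENCODE does not hold were present beside some of them. RefSeq places the start of a long non-coding RNA 135 bp from the region nearest to Wnt7b, which scored 136 and 146, another 228 bp from the Sox4 region and another 84 bp from the strongest Btg2 region. Over all regions, 90 of 1054, 8.54%, lay within 1000 bp of a RefSeq start and 170, 16.1%, within 5000 bp. Those 170 regions meet the rule by GENCODE and would not by RefSeq. RefSeq distances were measured for the strongest peaks alone, so whether these shares differ from those of other distal peaks was not tested.

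The regions were spread over many genes. They were nearest to 827 protein-coding genes, 3.98% of the 20780 on the autosomes, and 657 of these genes had 1 region while 170 had more. The genes with more than 1 held 397 regions. Just 12 genes had 4 or more, and 5 had 5 or more.

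The most, 6 regions, were nearest to 3110018I06Rik, on either side of it in the gene desert that lies beyond Bcl11b on chromosome 12. This gene also had many distal shared peaks, and the 6 regions were 7.69% of its 78, against 2.26% over all genes. The 6 regions lay 274 to 917 kb from the Bcl11b start, and their scores were 111 to 121 in replicate 1 and 113 to 127 in replicate 2. Bcl11b encodes a zinc finger factor required for commitment to the T lineage, and enhancers for it are known in this desert in mouse. A further 2 regions had Bcl11b itself as the nearest gene, both in its introns, with scores of 116 and 122 at one and 125 and 124 at the other.

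Gse1, Smndc1, Tgfbr2 and Trim33 had 5 regions each. At Tgfbr2, which encodes the TGF-beta type 2 receptor that restrains T cells, the regions reached from 98.1 kb downstream to 209.1 kb upstream of the start, and the farthest upstream was the strongest with 129 and 131. At Trim33, which encodes a ubiquitin ligase of the TGF-beta pathway, all 5 lay within 36.6 to 45.2 kb downstream of the start. At Smndc1, a splicing factor gene, 5 of its 11 distal shared peaks met the limits, and at Trim33 5 of 13. At Tgfbr2 it was 5 of 43 and at Gse1 5 of 84.

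A further 7 genes had 4 regions each. At Ccnd3, the D-type cyclin gene needed for thymocyte expansion, 4 of the 14 distal shared peaks met the limits, all in its introns at 6.03 to 37.0 kb from the start. Their scores in replicate 1 and replicate 2 were 128 and 124, 125 and 136, 129 and 135, and 132 and 142. The other 6 were Btg2, Cdca7, Ets1, Prex1, Ptma and Supt4a, and those of Cdca7, a MYC-responsive gene, all lay within the neighbouring gene Map3k20. These 6 genes had 10, 22, 46, 39, 19 and 7 distal shared peaks, in that order.

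T lineage transcription factor genes had 19 regions at 10 of 24 genes, 41.7%, against 3.98% of all autosomal coding genes. These genes also have many distal peaks, and the 19 regions were 3.34% of their 569 distal shared peaks, against 2.26% over all genes. Ets1, the founding ETS factor gene, had 4, with scores in replicate 1 and 2 of 132 and 131 at the strongest and 113 and 114 at the weakest. Runx1, whose product binds T cell enhancers, had 3, the strongest an intron peak with 131 and 133. Tcf7, an early T lineage factor gene, had 2, of which the stronger, 31.3 kb upstream, scored 129 and 136.

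Further lineage factor genes had 1 or 2 regions each. Bcl11b, Runx3 and Ikzf1 had 2, and Lef1, Fli1 and Tox had 1. The Tox region was the farthest of all from a coding start, 464.5 kb upstream, with scores of 119 and 117.

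T cell receptor and signalling genes had 11 regions at 7 of 24 genes, 5.09% of their 216 distal shared peaks. Ptprc, the CD45 phosphatase gene, had 2, with 125 and 130 at the stronger. Cd247, the CD3 zeta chain gene, had 1 in an intron with 121 and 124. Cd2, an adhesion receptor gene, had 3, and Rasgrp1, a Ras activator downstream of the receptor, had 2 upstream, the stronger scoring 124 in both replicates. Lcp2, Lat and Prkcq, which encode signalling proteins below the receptor, had 1 each.

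Early thymocyte genes had 7 regions at 4 of 16 genes, 4.73% of their 148 distal shared peaks. Il2ra, the interleukin 2 receptor alpha gene that marks early thymocyte stages, had 3 in its introns, 10.7 to 21.3 kb from the start. They scored 123 and 125, 122 and 113, and 117 and 118. Ccr9, a chemokine receptor gene of thymocyte homing, had 2, both with a RUNX match, scoring 126 and 129 at the stronger. Ccr7 and Cd44 had 1 each.

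Survival, cytokine and migration genes had 18 regions at 10 of 20 genes, 6.43% of their 280 distal shared peaks. Besides Tgfbr2, Socs1 had 3 and Socs3 and Bcl2l1 had 2 each. Socs1 and Socs3 encode inhibitors of cytokine signalling, and Bcl2l1 encodes the survival protein BCL-XL. The stronger Socs3 region scored 127 and 130, and the stronger Bcl2l1 region scored 126 and 134. The gene lists were chosen with earlier results of these data known, and the counts describe these lists.

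Genes of other cell types, taken as a whole, had a share near that of all distal shared peaks. Across the epithelial, endothelial, mesenchymal, erythroid, myeloid and B cell lists, 5 of 77 genes had 6 regions in all, 0.569% of the strongest peaks against 0.534% of all distal shared peaks. These 6 were 2.41% of the 249 distal shared peaks of those genes, and the 2 at B cell genes were 6.06% of 33. Pecam1, an endothelial and leukocyte adhesion gene, had 2, and Dcn, Flt3, Ebf1 and Cd79b had 1 each. The Cd79b region lay in an intron of Scn4a, not in Cd79b. The hepatocyte and neuron lists had 0 regions at 23 genes, with 37 distal shared peaks; a count of 0 among 37 leaves room for up to 8.11% of them. The 3 T cell lists together had 3.51% of the strongest peaks against 2.00% of all distal shared peaks.

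The regions were more often intergenic and less often intronic than the other distal shared peaks. Of the strongest, 571, or 54.2%, were intergenic (exact 95% interval 51.1 to 57.2%), against 45.5% of the others (45.1 to 46.0%). Introns of coding genes held 401, or 38.05% (35.1 to 41.1%), against 45.6% (45.1 to 46.1%). Intervals here and below cover counting error in the number of regions only, regions of 1 genome are not replicates of a condition, and the differences between classes of peaks are described and were not tested. With introns of genes of all biotypes the share was 41.6%.

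Exonic regions were rare. Coding exons held 21, 1.99% (1.24 to 3.03%), against 1.32% of the others (1.22 to 1.43%), and these intervals overlap. In 13 of the 21 the host gene was also the nearest gene. The strongest lay in Zfp771, a zinc finger gene, beside Dctpp1, and scored 133 in both replicates. Itgb7, the integrin beta 7 gene used by homing lymphocytes, had an exonic region with 115 and 118.

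The median distance to the nearest coding start was 24.5 kb and to a start of any biotype 13.9 kb. The regions lay closer to coding genes than the others did at both ends of the scale. Within 5 to 10 kb of a coding start lay 18.4% (16.1 to 20.9%), against 14.6% (14.3 to 15.0%), and over 100 kb away lay 12.9% (10.9 to 15.1%), against 16.5% (16.2 to 16.9%). Besides Tox, the farthest were nearest to Sall3 at 443.3 kb and Atp11b at 435.6 kb. By the direction of the nearest coding gene, 48.6% lay upstream of its start, against 44.7% of the others.

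**Figure D2:**
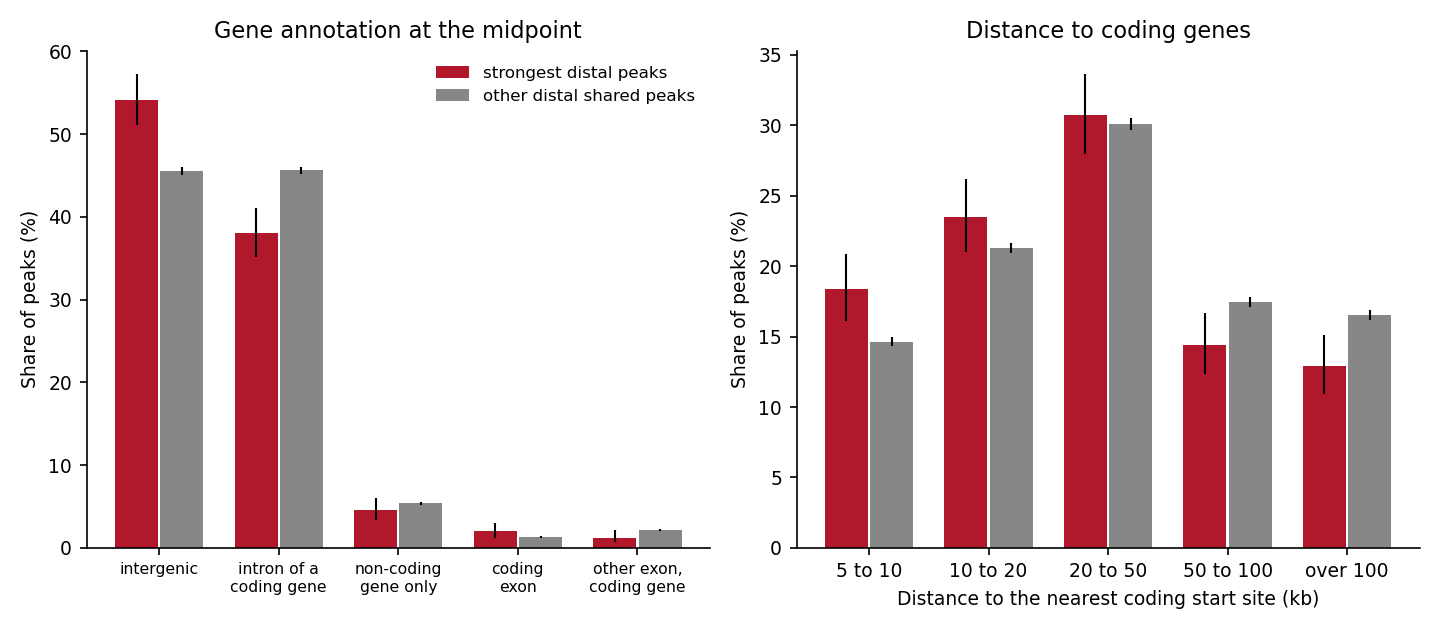
Share of peaks in % by gene annotation at the midpoint (left) and by distance to the nearest coding start site in kb (right), for the strongest distal peaks (red, left bar of each pair) and the other distal shared peaks (grey), with exact 95% intervals as error bars. The red bar is the taller for intergenic sequence, 54.2% against 45.5%, and the shorter beyond 100 kb, 12.9% against 16.5%.

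Chromosome 11 had the most regions, 104, or 0.852 per Mb, against 0.428 per Mb over the autosomes. It also had many distal peaks, of which 2.93% met the limits. Chromosome 14 had the lowest density, 0.296 per Mb, with 37 regions. The regions were mostly solitary, with a median of 174.8 kb to the nearest other region, but 193, or 18.3%, lay within 10 kb of another and 67 within 1 kb.

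Each region lay in a hotspot in both replicates, and the hotspots were wide. The median width was 860 bp in replicate 1 and 1061 bp in replicate 2 at the strongest peaks, against 293 and 316 bp at the other distal shared peaks. The mean of the replicate medians was 960.5 ± 142.1 bp (SD, n = 2) against 304.5 ± 16.3 bp (SD, n = 2). Equally strong shared peaks within 5000 bp of a start site had wider ones, with medians of 1163 and 1439 bp. Hotspots and peaks come from the same reads, so the width is not independent of the choice of the regions.

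Hotspots were narrower in each lower band of score. The medians were 616 and 768 bp for lower scores of 90 to 109, and 201 and 176 bp for scores of 1 to 29. Every one of the strongest peaks lay in a hotspot whose −log10 q stood at the deposited maximum of 100 in both replicates, against 63.3% in replicate 1 and 54.8% in replicate 2 of the other distal peaks. In the band of 90 to 109 the shares were 99.9% and 100%, and at 70 to 89 they were 99.1% and 99.5%. A value at the maximum was thus not particular to the strongest peaks. The strength of the hotspots at the strongest peaks therefore cannot be ranked.

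**Figure D3:**
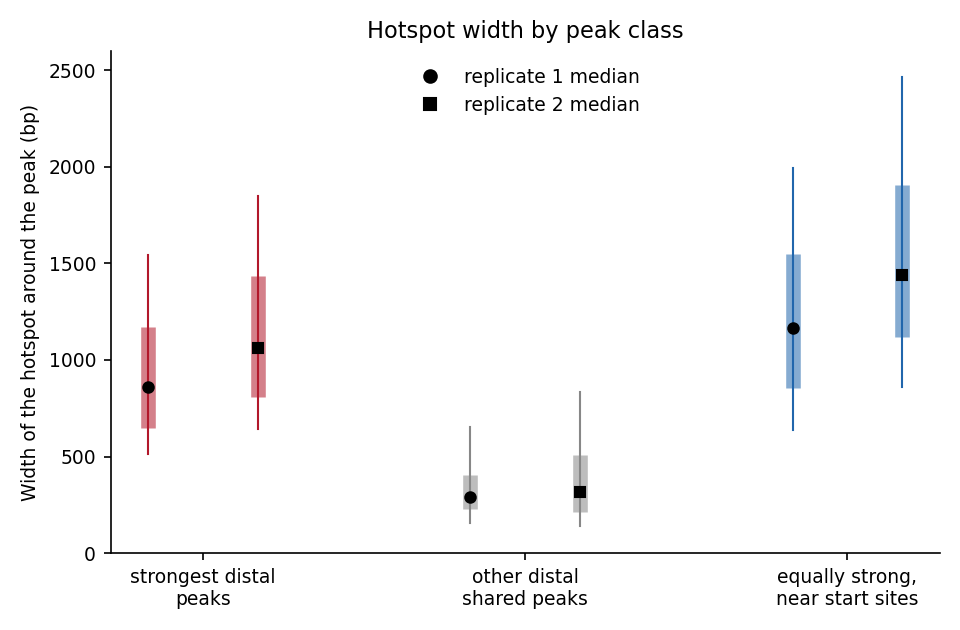
Width in bp of the hotspot around each peak in replicate 1 (circle, median) and replicate 2 (square, median), with thick bars from the first to the third quartile and thin lines from the 10th to the 90th percentile. The quartile range of the strongest distal peaks starts at 647 and 807.5 bp, above the third quartile of 406 and 509 bp for the other distal shared peaks, and the medians lie below those of the equally strong peaks near start sites.

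Individual widths varied widely. The 1054 regions lay in 1022 hotspots of replicate 1, of which 31 held 2 or more of them. The widest hotspot in replicate 1 was at the Sox4 region, 2831 bp, and in replicate 2 at a region 5.25 kb upstream of Arl5c, 4594 bp. The narrowest were at an intron region of Jarid2, a Polycomb accessory protein gene, with 145 and 166 bp, and at one of Aff1 with 169 bp in both replicates. The Aff1 region scored 126 and 130, so a high score also occurred in a hotspot hardly wider than the peak. In replicate 1, 51.9% of the regions were the only peak in their hotspot.

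In base composition the strongest distal peaks stood between other distal peaks and promoters. Their GC content was 55.8% ± 6.26 (SD over 1054 regions), against 50.2% ± 6.24 over 45546 other distal peaks and 64.7% ± 8.19 over 8277 equally strong peaks near start sites. Peak-free windows of 150 bp at 1000 bp from the midpoint had 45.6% GC beside the strongest peaks and 45.0% beside the others. GC content declined with score in every band, down to 48.5% at scores of 1 to 29. Repeat-masked bases took 8.15% of the strongest peaks against 15.2% of the others. The share was 8.7% at scores of 90 to 109, close to that of the strongest peaks, and 19.7% at scores of 1 to 29.

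CpG-rich sequence, here at least 55% GC with at least 0.6 of the CpG count that base composition predicts, was present in 136 regions, 12.9% (10.9 to 15.1%). The share was 2.20% (2.06 to 2.33%) in the other distal peaks and 76.3% (75.4 to 77.2%) in the equally strong peaks near start sites. Within the strongest peaks it was 9.02% at lower scores of 110 to 119, 16% at 120 to 129 and 37.5% of 64 regions at 130 or more. Of the 20 highest-ranked, 10 were CpG-rich.

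The CpG-rich regions are set beside the remaining 918. They were intergenic in 70.6% against 51.7%, and a RefSeq start lay within 1000 bp of 17.6% against 7.19%. A GC box, whose letters are all G and C and hold a CpG, was found in 53.7% against 12.9%, which the split itself favours. An NFY match (CCAAT) was found in 22.1% against 15.3%. RUNX matches went the other way, in 10.3% against 32.6%, as did E-boxes of the form CACCTG, in 6.62% against 38.6%. Neither of these holds a CpG, so the split itself may work against both. Hotspot medians were 924.5 and 1132 bp in the CpG-rich regions against 851 and 1055 bp.

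CTCF core letters were less frequent in the strongest distal peaks than in other distal peaks. CTCF is the zinc finger protein that marks insulators and loop anchors. The core CCNNNAGNNGGC, with N for any base, was found in 102 of the strongest peaks, 9.68% (7.96 to 11.6%), against 21.5% (21.1 to 21.9%) of the others and 21.2% of all distal shared peaks. The share was highest at middle scores, 26.6% at 70 to 89, and was 19.2% at 90 to 109. Equally strong peaks near start sites had it in 8.42%, and the flanking windows of the strongest peaks in 2.76%.

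Each replicate's own list gave the same order. Among distal peaks that scored at least 110 in their own replicate, whether shared or not, 10.9% ± 1.91 (SD, n = 2 replicates) held the CTCF core, against 17.4% ± 1.12 of those that scored less. With the letters of the core reversed (CGGNNGANNNCC) the share was 0.949% of the strongest peaks and 0.393% of the others; the reversed letters fix a CpG that the core does not, so they do not match its base content. The CTCF core also sat less centrally, at a median of 28 bp from the midpoint in the strongest peaks against 13 bp in the others, and within the central part of the peak (the middle 75 bp) in 69.6% against 90.5%.

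RUNX and E-box matches were more frequent. The RUNX letters TGTGGT were found in 313 of the strongest peaks, 29.7% (27.0 to 32.6%), against 22.0% (21.6 to 22.4%) of the others and 22.2% of all distal shared peaks. The flanking windows of the strongest peaks held them in 10.9%. Below the limit the RUNX share differed little between bands, with 22.9% at 90 to 109 and 22.2% at 1 to 29. Within the strongest peaks the RUNX share did not rise with score. It was 30.7% at lower scores under 120, 28.9% at 120 to under 130 and 23.4% of 64 regions at 130 or more.

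E proteins, the basic helix-loop-helix factors E2A and HEB in thymocytes, bind E-boxes. The form CAGCTG was found in 30.6% (27.9 to 33.5%) of the strongest peaks, against 16.4% (16.1 to 16.7%) of the others and 16.7% of all distal shared peaks. The form CACCTG was found in 34.4% (31.6 to 37.4%), against 22.0% (21.6 to 22.4%) and 22.3% of all. Both shares declined through the bands of score, to 13.4% and 18.4% at 1 to 29. In the flanking windows of the strongest peaks they were 6.09% and 11.1%. Within the strongest peaks, CAGCTG was found in 29.0% at lower scores under 120 and in 36% at 120 to under 130. At 130 or more it was found in 20.3% of 64 regions. CACCTG differed little between these groups, with 34.6%, 34.15% and 34.4%.

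ETS letters were more frequent too. The CpG form CCGGAA was found in 9.20% (7.53 to 11.1%), against 3.84% (3.66 to 4.02%) of the others and 3.96% of all distal shared peaks. The form without CpG, ACAGGAA, was found in 18.6% (16.3 to 21.1%), against 13.8% (13.5 to 14.1%) and 13.9% of all. In the band of 90 to 109 the share of ACAGGAA was 17.0% (15.6 to 18.4%), and these intervals overlap. Within the strongest peaks it did not rise with score. It was 20.9% at lower scores under 120, 14.5% at 120 to under 130 and 15.6% of 64 regions at 130 or more. Equally strong peaks near start sites had the CpG form in 23.9% and the other in 4.72%, so the strongest distal peaks stood between promoters and other distal peaks in the first and above both in the second.

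The largest ratio among these 8 motifs was for the CRE, the letters TGACGTCA bound by CREB and ATF factors. It was found in 23 of the strongest peaks, 2.18% (1.39 to 3.26%), against 0.364% (0.311 to 0.424%) of the others and 0.406% of all distal shared peaks, a ratio of 5.99. GC boxes (GGGCGG), bound by SP and KLF factors, were found in 18.1% (15.8 to 20.6%), against 6.11% (5.89 to 6.34%) and 6.38% of all. Equally strong peaks near start sites had the CRE in 3.62% and the GC box in 58.8%.

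**Figure D4:**
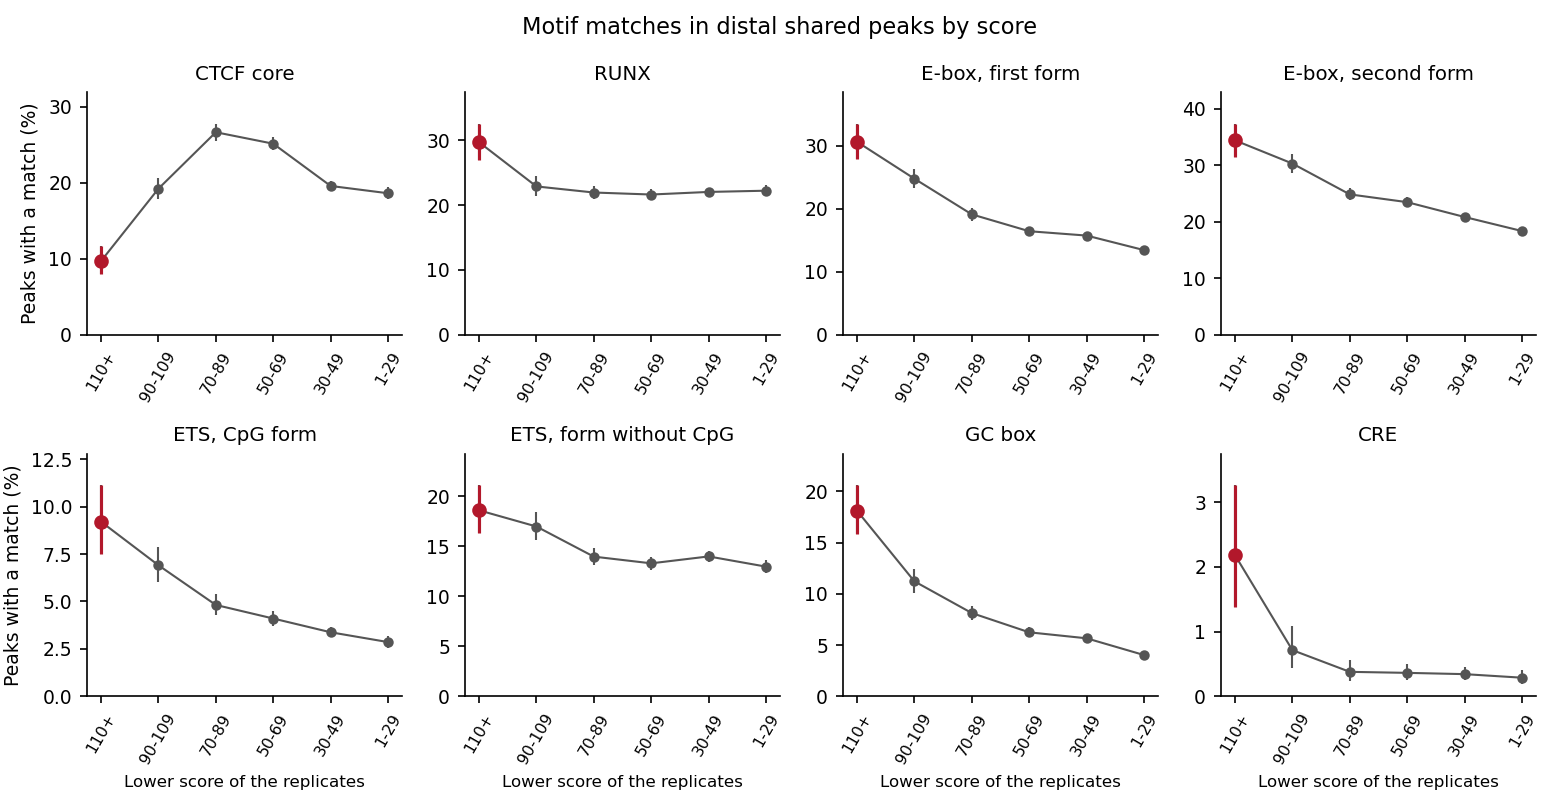
Share of distal shared peaks in % that hold each motif on either strand, by the lower score of the replicates, with the strongest distal peaks (110 or more, red) at the left of each panel and exact 95% intervals as bars. The CTCF core share is lowest at the left, 9.68%, and the other 7 motifs are highest there, such as 30.6% for the E-box form CAGCTG (first form) and 34.4% for CACCTG (second form).

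Of other motifs of thymocyte factors, one was found at like shares and one less often. The TCF7 and LEF1 letters CTTTGA were found in 14.3% (12.3 to 16.6%) of the strongest peaks and 14.1% (13.8 to 14.5%) of the others. GATA letters (AGATAA) were found in 4.27% (3.13 to 5.67%) against 6.59% (6.36 to 6.82%). The flanking windows held GATA letters more often than the peaks, in 8.79% beside the strongest peaks and 8.25% beside the others. The letters AGATAA are mostly A and T, and the part of base composition in these shares was not tested. The letters alone do not say which factor, if any, was bound at a match.

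Matches were concentrated near the midpoint. In the 50 bp bins on either side of it, the strongest peaks had 13.8 matches of CAGCTG and 12.6 of RUNX per 100 peaks, against 3.20 and 3.75 per 100 in the 4 outermost bins of the 500 bp on each side. For the CTCF core the central value was 4.17 per 100 strongest peaks, against 9.10 at scores of 90 to 109 and 12.4 at 50 to 69. The outermost bins of those 3 classes were alike for CTCF, with 0.830, 1.03 and 0.841.

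**Figure D5:**
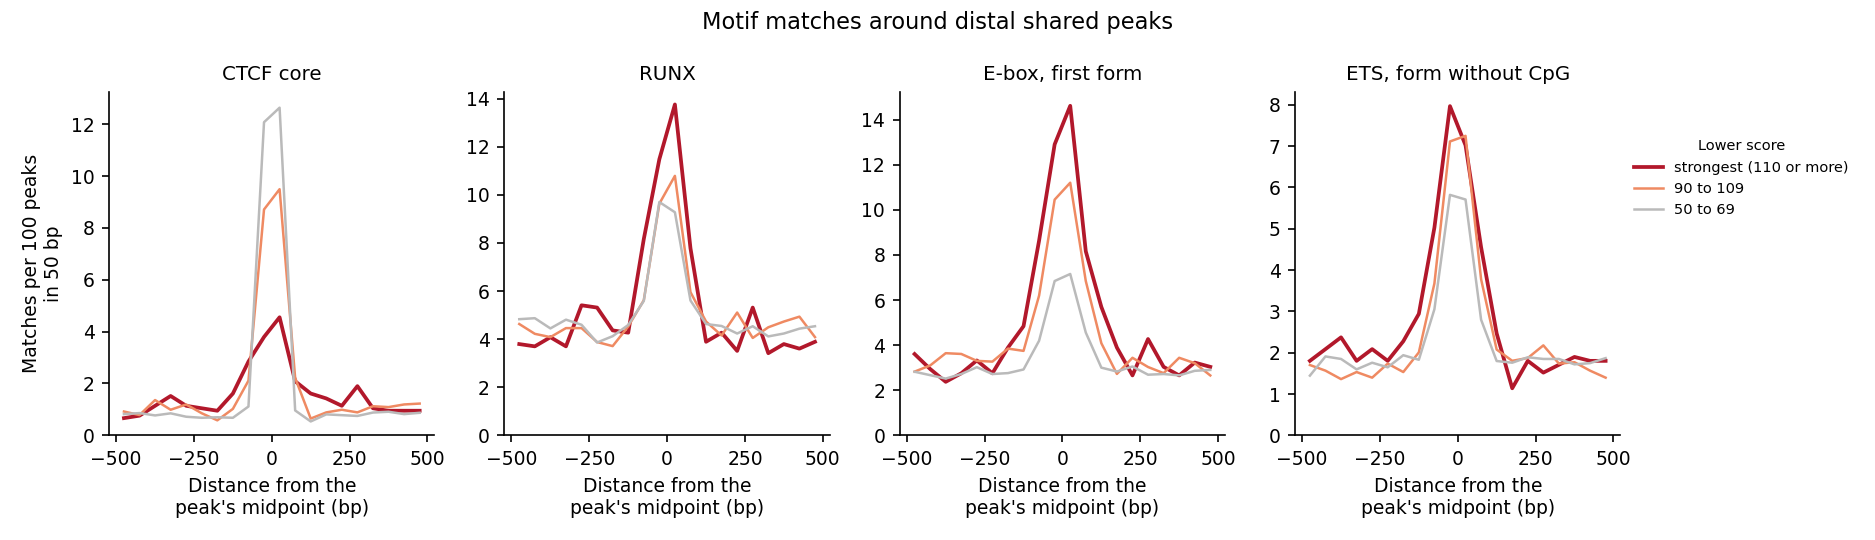
Matches per 100 peaks in bins of 50 bp, by distance in bp from the peak's midpoint, for the strongest distal peaks (red, thick) and distal shared peaks with lower scores of 90 to 109 (orange) and 50 to 69 (grey). The red line is the lowest at the centre for the CTCF core, 4.17 per 100 on average over the 2 central bins, and the highest for RUNX and the E-box form CAGCTG (first form).

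Combinations of motif classes were more frequent in the strongest peaks. The letters of each class were also more frequent singly, as given above. Whether the classes occurred together more often than that alone would give was not tested. Matches to at least 2 of the classes RUNX, ETS and E-box were found in 287 regions with 2 and 32 with all 3, which is 27.2% and 3.04%, against 13.4% and 1.11% of the other distal peaks. Without any of the 3 were 24% against 41.9%. Of all words of 8 bases, counted on either strand, CAGCTGCA had the largest difference, in 8.73% against 3.57%, followed by AAACCACA, which holds the RUNX letters on its other strand, in 8.92% against 4.27%.

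Regions with the CTCF core differed from the other 952 in other readouts. Their hotspots were narrower, with medians of 716 and 932.5 bp against 872.5 and 1068 bp, and their GC content was 59.4% ± 5.22 against 55.5% ± 6.25 (SD over regions). The letters that the core fixes are mostly G and C, so the split itself favours a higher GC content. RUNX letters were found in 17.6% against 30.99%. Just 1 of the 102 lay nearest to a gene of the 3 T cell lists, an intron region of Il2ra, against 36 of the 952. Of the 37 regions at these lists, 15 had RUNX letters, 40.5%, and 21 lay in introns.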

How the data were processed

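Newborn mouse thymus was assayed by DNase-seq in 2 samples of 1 group, numbered as replicates by the labels. The authors deposited for each a peak list with a whole-number score and a hotspot list whose values are −log10 q-values, both on mm10 per the labels. What the score counts, and which callers, aligner and sequencing depth stood behind it, is not given in the sources used here. Depth is therefore unknown, and values were not scaled by it. The labels call them biological replicates with separate biosamples and give both the same donor, so their spread may be partly technical.

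Peaks were compared by overlap of at least 1 bp. Start sites, exons and genes came from GENCODE M21, further start sites from RefSeq, and sequence from GRCm38, which is the mm10 build. A peak was placed by its midpoint, and a motif match is the consensus letters on either strand. The nearest gene is that of the nearest coding start. Repeat-masked bases are the lower-case letters of that genome.

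Members, lists and motifs were chosen with earlier results of these data known. The rule allows the text to name genes nearest to the 20 highest lower scores, genes with 2 or more regions, up to 4 regions per list, and those at coding exons, extreme hotspot widths and extreme distances. Not every gene it allows is named, and of genes with several regions those with 4 or more are. Further list genes are named to complete a list. No test was run between conditions, since there was 1 group. Intervals are exact (Clopper-Pearson) at 95%. Overlap, distance and word counting were tested on simulated data. Alternatives were other score and distance limits, coding start sites alone, a reciprocal overlap of 50%, each replicate alone, other CTCF letters and windows, and joined hotspots. The work was done in Python 3.11.15 with pandas 2.3.3, numpy 2.4.6 and scipy 1.17.1, and figures were drawn with matplotlib 3.10.9.

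Results at some genes are not reported here.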

Additional observations from a re-analysis of the deposited data

Results flagged for a closer look

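Chromosome X was outside the choice of regions, which took autosomes alone, and still held 9 peaks that passed the score, overlap and distance limits. They were 0.903% of the 997 distal shared peaks of chromosome X, against 2.26% on the autosomes, and were nearest to Prickle3, Elf4, Zfp185, Tbl1x, Eif2s3x, Nlgn3, Tsc22d3 (2) and Pak3. The strongest, 34.7 kb from the start of Eif2s3x, scored 120 and 130, and the Elf4 peak, beside a gene for an ETS factor of lymphocytes, scored 113 and 118. Chromosome Y held 0 of 19. Males and females were pooled, and the part of sex in these shares was not tested.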

How the results depend on the processing

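The number of regions followed the limits: 2214 at a score limit of 100, 389 at 120, 686 over 10000 bp from every start site and 1589 with coding start sites alone, against 1054. It was 1364 over 2500 bp, 1043 with reciprocal overlap of 50% and 884 with RefSeq start sites added, a choice made after seeing the data. On replicate 1 alone or replicate 2 alone it was 1385 to 1570. The intron share was 33.2% at the limit of 120 and 41.6% with genes of all biotypes; replicates alone gave 37.5 to 40.6%. Mean hotspot width was 1126 bp with hotspots under 150 bp apart joined, and 775 to 1054 bp with replicates alone. The CTCF core share was 12.1% at the limit of 100, 14.5% in a window of 300 bp, 0.190% with a longer consensus and 0.949% with reversed letters, and 9.53 to 12.2% with replicates alone. GC content was 57.2% at the limit of 120 and 54.7 to 56.2% with replicates alone; the share at the 3 T cell lists was 3.12 to 3.47% with replicates alone, 4.63% at the limit of 120 and 4.37% over 10000 bp, against 3.51%. Leaving out regions with over 50% recurring words removed none. Of the other 59 recomputed values, 44 stayed within tolerance and 15 moved. The tolerance was 1.5-fold for the number of regions, the exact 95% interval for shares, and the SD between replicates for hotspot width (142.1 bp) and GC content (1.07 percentage points). No paired analysis was possible because the samples form 1 group. The limits of these data are an unknown depth, a score of unstated meaning, nearest-gene assignment, and 2 replicates with 1 donor label.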

Other observations

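Letters of most further factors were rare in the strongest distal peaks, some at lower and some at higher shares than in the other distal peaks. The REST element was found in 1 of 1054 regions (0.0949%) against 61 of 45546 other distal peaks (0.134%). HNF4 letters, a comparison from liver, were found in 1 region (0.0949%) against 0.147%. HNF1 letters were found in 0 regions of 1054, which allows a share of up to 0.349% by the exact interval. They were also found in 0 of the 45546 other distal peaks, so this count does not tell the classes of peaks apart. YY1 letters were found in 0.474% (exact 95% interval 0.154 to 1.10%) against 1.22% (1.12 to 1.32%), and NRF1 letters in 2.09% (1.31 to 3.14%) against 0.496% (0.434 to 0.565%). Equally strong peaks near start sites had YY1 letters in 2.91% and NRF1 letters in 4.97%. IRF letters were found in 1.71% (1.01 to 2.69%) against 2.10% (1.97 to 2.23%), and AP-1 letters in 4.65% (3.46 to 6.10%) against 5.74% (5.52 to 5.95%). Higher shares were found for NFY (16.1% against 13.7%), the E-box form CACGTG (6.26% against 3.65%) and MYB (3.32% against 2.74%). The same held for RFX (0.854% against 0.404%), EGR (6 regions, 0.569% against 0.105%) and ZNF143 (3 regions, 0.285% against 0.026%). Lower shares were found for STAT (0.285% against 0.584%) and NF-kB (0.474% against 0.507%).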
